A study of Mus musculus with 10 samples.

Results

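The question was which genes changed with doxycycline to a different degree after 14 days than after 5 days in mouse leukaemic progenitor cells. For every gene the change off over on at day 5 was subtracted from the change off over on at day 14, and the difference was tested over all 10 of the 10 libraries of the series. Of 15916 genes tested, 487 (3.06%) had a change that differed between the days at an adjusted p below 0.05, and these are the genes described. In 262 of them (1.65% of tested genes) the change was more positive at day 14 than at day 5, and in 225 (1.41%) it was more negative. The unadjusted p was below 0.05 in 3681 genes.

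The cells came from a leukaemia named DIN, made by giving fetal liver cells 3 retroviral (MSCV) vectors, which carry DNMT3A R882H, IDH2 R140Q and NRAS G12D. All 4 groups carry all 3 vectors, written TRI-DNMT3AR882H with dsRed, MIG-IDH2R140Q with GFP and MIT-NRASG12D with TTA. TTA is the activator that drives the DNMT3A vector, and doxycycline blocks it. Frozen cells of sick mice were passed to Ptprca recipients, whose own blood cells remain, which then received doxycycline (off, since R882H is no longer made) or normal food and water (on) for 5 or 14 days, and cKit-positive, Cd11b-negative cells were isolated from marrow and spleen. The data are 3′ mRNA counts, with 4 libraries of the day 14 off group and 2 each of day 14 on, day 5 off and day 5 on. The labels name neither the organ nor the mouse of a library, nor how many primary leukaemias were used, so the p-values measure the spread between these libraries. No group had doxycycline without the regulated vector, so an effect of the drug itself and the loss of R882H cannot be told apart.

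DNMT3A places methyl groups on DNA, and the R882H form found in acute myeloid leukaemia lowers that activity. Methylation patterns are copied at each cell division. Replication-dependent histones are made in S phase, and red cell precursors make heme from iron and porphyrin, partly in mitochondria. The series title names heme biosynthesis and cuproptosis, a form of cell death driven by copper.

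Library depth was 9292644 to 14340624 counts, and correlations between libraries of a group from 0.953 to 0.983. The 3 gene models of the ribosomal RNA locus took 7.78% to 16.5% of the counts. They overlap on chromosome 17 and hold nearly equal counts, such as 49080, 48800 and 47910 CPM in day 14 off replicate 1. The same reads may be counted in each, so this share may be too high. Kit, the gene of the sort marker that was present, lay between 30.9 and 98.1 CPM (counts of a gene relative to the library's total, scaled by TMM), and Itgam, the gene of Cd11b, between 2.06 and 21.9 CPM. Red cell precursor markers stood apart in day 5 off replicate 2: their mean log2 CPM was 4.15 there and 2.83 in replicate 1, against 1.97 and 2.07 for day 5 on, 2.58 and 2.74 for day 14 on, and 5.50 to 5.64 for day 14 off. Monocyte and class II markers were higher in replicate 1 than in replicate 2 of every group with 2 libraries.

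Among the 262 more positive genes the median change off over on was -0.03 (log2) at day 5 and 1.47 at day 14, and among the 225 more negative genes it was -0.04 and -1.99. The day 5 changes went in both directions, with a median size, whatever the sign, of 0.30 and 0.43 in these genes and 0.29 over all tested genes. They were of opposite sign to the day 14 change in 145 of 262 and 99 of 225, and were 2-fold or more in 22 and 34. Over all 15916 tested genes the signs were opposite in 6181 and the day 5 change was 2-fold or more in 1632. Over all tested genes the median difference between days was 0.03. Of the 487 genes, 254 and 217 were also called at day 14 (background 31.8% of tested genes) and 8 and 4 at day 5 (background 0.484%). These changes share libraries with the difference itself. A difference of at least 2-fold was seen in 227 and 215 genes, and in 3484 of all tested genes.

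In the more positive genes the off libraries had a median change from day 5 to day 14 of 0.93 and the on libraries of -0.66, and the arms moved in opposite directions in 228 of 262. In the more negative genes these medians were -1.33 and 0.48, with opposite directions in 189 of 225. Cells in which R882H stayed on moved further over time than cells in which it was turned off in 120 of the more positive and 56 of the more negative genes. The genes were chosen on the gap between these changes, which by itself favours opposite directions. Over all 15916 tested genes the directions were opposite in 6960 and the on libraries moved further in 7477.

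**Figure D1:**
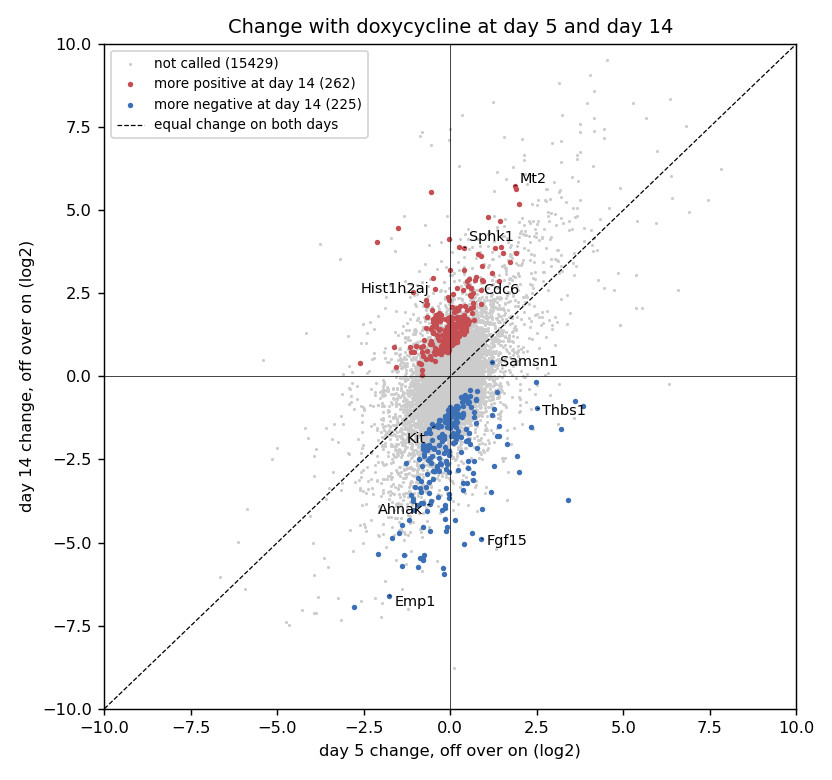
Each point is a gene, with its log2 change off over on at day 5 (x axis) and day 14 (y axis). Grey marks genes with no call, red the 262 more positive and blue the 225 more negative genes at day 14, and most coloured points lie near 0 on the x axis.

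**Figure D2:**
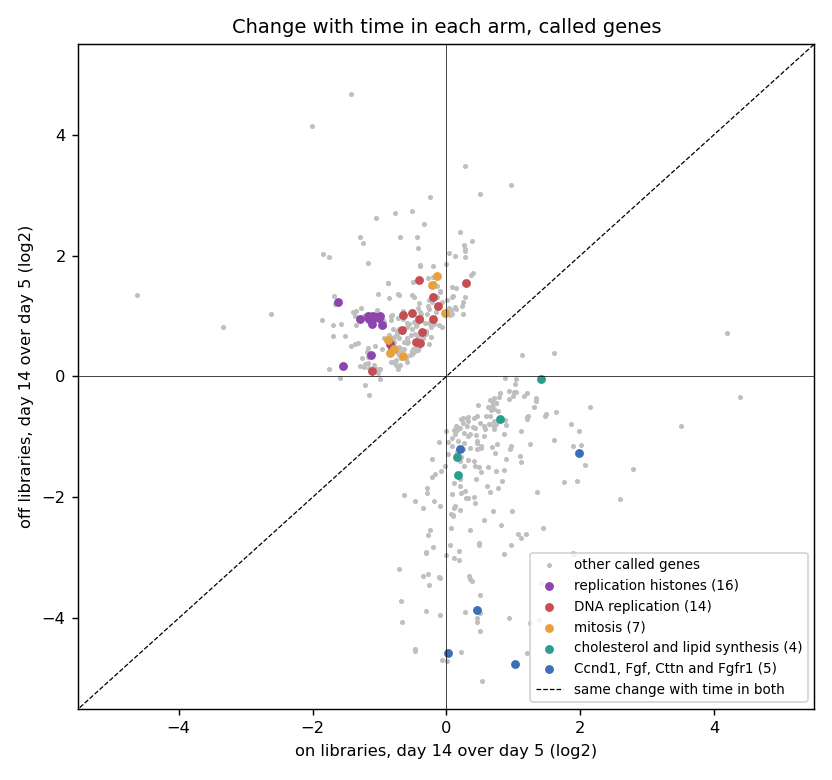
Log2 change from day 5 to day 14 in the on libraries (x axis) and the off libraries (y axis) for the 487 genes with a call, coloured by gene list. Genes above the dashed line had a more positive doxycycline change at day 14, and replication histones (purple) lie to the left of 0, lower in on libraries at day 14 than at day 5.

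Replication-dependent histone genes, which supply the proteins that package new DNA, included the gene with the smallest p-value, Hist1h2aj. Of 70 listed genes 66 were tested, and 16 (24.2%) had a more positive change at day 14, with none more negative and a list median of 1.40. Their summed level was 1432 to 1530 CPM for day 14 off, 639 and 784 for day 14 on, no more than 913 for day 5 off, and 1010 and 1260 for day 5 on. The order of the arms turned over between the days: the off libraries were the lower ones at day 5 and the higher ones at day 14, and the median change of the list was -0.29 and 1.09. Fewer cells in S phase and less histone RNA per cell cannot be told apart in bulk libraries, and the same holds for every list that follows.

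Hist1h2ag encodes a core histone of the H2A family (ENSMUSG00000069301, chromosome 13, 22042460 to 22042944). Hist1h2ag was at 50.3, 45.6, 50.1 and 45.5 CPM in the day 14 off libraries, 13.8 and 14.4 for day 14 on, 24.6 and 24.3 for day 5 off, and 29.7 and 33.3 for day 5 on. The 4 groups did not overlap, and the day 14 on libraries were the lowest. The change was -0.36 at day 5 and 1.76 at day 14, a difference of 2.13 ± 0.20 (adjusted p = 0.00106). Hist1h2ao stood at 222, 235, 205 and 206 CPM in the day 14 off libraries, 72.5 and 71.3 for day 14 on, 98.3 and 121 for day 5 off, and 155 and 145 for day 5 on. It had the same order of groups at a higher level, with a difference of 2.05 ± 0.20 (adjusted p = 0.00106). Hist1h2aj, annotated as a pseudogene of the family, had the largest difference among the histone genes called, 2.85 ± 0.23 (adjusted p = 0.000922), from -0.69 at day 5 to 2.16 at day 14. For Hist1h2ab the difference was 2.25 ± 0.23 (adjusted p = 0.00127). The calls of these 4 H2A genes were kept in every alternative that could be fitted, a test against a 2-fold minimum included.

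All 16 genes lie on chromosome 13 between 21716422 and 23751598 (mm10), 13 of them H2A genes, with Hist1h3d (H3, 1.80 ± 0.23), Hist1h2bk (H2B, 1.71 ± 0.31) and Hist1h4i (H4, 1.39 ± 0.27) beside them. They are not 16 separate measurements. Coding sequences of 393 bases in 11 of the H2A genes were 96.2% to 100% identical (median 98.2%, 55 pairs), so reads may be split among copies. Each of the 13 H2A genes also overlaps a miRNA model on the other strand whose counts came to 55.7% to 97.7% of the gene's own, and the strand setting of the counting is not given in the sources used here. These 13 models are among the 19 miRNA models called, out of 136 tested.

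Most histone mRNAs carry no poly(A) tail, while the kit primes on poly(A). Of other RNAs without a tail, 10 of 111 snoRNA genes had a more positive change at day 14 and none a more negative one (median 1.21). The median change of snoRNA genes was -0.28 at day 5 and 0.89 at day 14, so their arms turned over as in the histone list. For snRNA genes 2 of 57 were more positive and 1 more negative (median 1.16). Median changes of snRNA genes were above 0 on both days (0.18 and 1.35). Over all tested genes 1.65% were more positive and 1.41% more negative. Summed small RNA was 1332 to 1634 CPM for day 14 off, 1013 and 1139 for day 14 on, 1219 and 1279 for day 5 off, and 2157 and 1054 for day 5 on. The part of small RNA capture in the histone result was not tested. Without day 5 on replicate 1, the library highest in small RNA, the histone list median was 0.95. With small RNA genes left out of the fit 16 histone genes were called. That fit drops the small RNA genes and leaves the histone counts as they were, so it cannot show whether capture differed between libraries.

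Genes of DNA replication also had a more positive change at day 14. Of 40 listed genes, all tested, 14 (35%) had a more positive change at day 14 and none a more negative one, with a median of 1.01. They included the cyclin Ccne1, the origin factors Cdc6, Orc1 and Mcm10, the helicase subunits Mcm2, Mcm5 and Mcm7, the ribonucleotide reductase subunits Rrm1 and Rrm2, and Pole, Pold1, Prim1, Lig1 and Rfc5 of the fork. Their differences ran from 0.94 (Rfc5) to 2.0 (Ccne1).

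Ccne1 encodes cyclin E1, which opens S phase (ENSMUSG00000002068, chromosome 7, 38097984 to 38107534). Ccne1 was at 36.8, 37.2, 31.7 and 31.4 CPM in the day 14 off libraries, 4.56 and 4.52 for day 14 on, 9.49 and 13.2 for day 5 off, and 5.62 and 6.38 for day 5 on. The off libraries were above the on libraries at both days, without overlap, and the gap was wider at day 14. The change was 0.91 at day 5 and 2.91 at day 14, a difference of 2.0 ± 0.29 (adjusted p = 0.00932). Cdc6 loads the helicase at origins (ENSMUSG00000017499, chromosome 11, 98907801 to 98923940). Cdc6 stood at 108, 111, 96.0 and 93.9 CPM in the day 14 off libraries, 22.2 and 21.8 for day 14 on, 41.2 and 57.8 for day 5 off, and 29.7 and 33.3 for day 5 on. Here too all groups were apart, with day 14 on lowest and day 14 off highest, and the difference was 1.56 ± 0.24 (adjusted p = 0.0122). Mcm10 lay at 38.4, 38.7, 36.0 and 35.5 CPM in the day 14 off libraries, 9.85 and 10.8 for day 14 on, 19.4 and 24.1 for day 5 off, and 17.5 and 15.4 for day 5 on. Its difference was 1.44 ± 0.23 (adjusted p = 0.0151), and the call was lost without day 14 on replicate 1 or day 5 off replicate 1. Pole, the leading strand polymerase, was lower off than on at day 5 (-0.44) and higher at day 14 (0.84), with a difference of 1.29 ± 0.24 (adjusted p = 0.028). The calls of Ccne1 and Cdc6 were kept in every alternative but the test against a 2-fold minimum.

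Mitosis genes moved the same way. Of 30 listed and tested genes 7 (23.3%) had a more positive change at day 14, none a more negative one, and the median was 0.98. The 7 were Cdk1, the kinase that starts mitosis, the spindle checkpoint genes Bub1b and Ttk, Cdc20, Plk1, Nusap1 and the topoisomerase Top2a. Cdk1 was at 206, 241, 215 and 176 CPM in the day 14 off libraries, 64.2 and 61.1 for day 14 on, 129 and 147 for day 5 off, and 92.3 and 138 for day 5 on. The day 14 on libraries were the lowest, and day 5 off overlapped day 5 on. Its difference was 1.48 ± 0.27 (adjusted p = 0.0257). Plk1, with 1.79 ± 0.36, and Cdc20, with 1.73 ± 0.32, had the largest differences, and reads of Cdc20 may be shared with Elovl1, whose exons overlap it on the other strand. Tyms (1.03 ± 0.25, adjusted p = 0.0505) and Cenpf (0.92 ± 0.22, 0.0508) lay just outside the threshold, and Cyc1 (0.0496) and Samsn1 (0.0496) just inside it.

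Both counts moved with single libraries, and so did the number called over all genes. Without day 14 off replicate 1, 2, 3 or 4, 52, 71, 160 and 53 genes were called more positive, against 262. More negative genes came to 54, 138, 174 and 58, against 225. List counts with a library left out, here and below, move along with these totals and are not by themselves traits of a list. For DNA replication 2 genes were called without day 14 on replicate 1 or day 5 off replicate 1, 3 without day 14 off replicate 1, 2 or 4 or day 14 on replicate 2, 5 without day 5 on replicate 2, and 9 without day 14 off replicate 3. For mitosis none was called without day 14 off replicate 1, day 14 on replicate 2 or day 5 off replicate 1, 1 without day 14 off replicate 2 or 4 or day 14 on replicate 1, and 4 without day 5 off replicate 2 or day 5 on replicate 2. Without day 5 on replicate 1 the counts were 20 and 18. With each library left out in turn the median was between 0.81 and 1.06 for DNA replication and between 0.70 and 1.11 for mitosis. Erythroid markers were also highest in the day 14 off libraries, at a sum of 3523 to 3806 CPM. They were at 462 and 539.8 for day 14 on, 533 and 1293 for day 5 off, and 394 and 384 for day 5 on. In the on libraries their median change from day 5 to day 14 was 0.57, against -0.41 for DNA replication and -0.41 for mitosis. The part of erythroid markers in the result was not tested.

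Promoters of the genes that moved together were read from RefSeq (GRCm38.p6), 250 bases before to 50 after the start. These 3 are shown as examples from the DNA replication, mitosis and cholesterol lists whose 250 upstream bases hold no annotated exon, and were chosen after the values were seen. Capitals mark TTTGGCGC, a site form of E2F factors, and CCAAT, the NF-Y box, in the Mcm5 sequence (chr8:75109259-75109508, plus strand), CCAAT in that of Top2a (chr11:99024190-99024439, minus strand), and TCACNCCAC, the sterol response element read by SREBP factors, in that of Hmgcs1 (chr13:119690101-119690350, plus strand), on either strand.
Mcm5: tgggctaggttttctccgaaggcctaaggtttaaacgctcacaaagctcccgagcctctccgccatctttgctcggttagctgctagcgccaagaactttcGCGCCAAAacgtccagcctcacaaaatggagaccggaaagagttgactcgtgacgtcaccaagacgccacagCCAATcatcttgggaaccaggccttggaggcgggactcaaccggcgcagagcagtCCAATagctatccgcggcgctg
Top2a: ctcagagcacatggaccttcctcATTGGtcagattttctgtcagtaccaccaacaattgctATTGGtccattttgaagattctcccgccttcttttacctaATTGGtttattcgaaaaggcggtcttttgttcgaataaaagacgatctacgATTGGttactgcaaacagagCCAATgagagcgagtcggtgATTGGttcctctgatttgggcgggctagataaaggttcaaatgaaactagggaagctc
Hmgcs1: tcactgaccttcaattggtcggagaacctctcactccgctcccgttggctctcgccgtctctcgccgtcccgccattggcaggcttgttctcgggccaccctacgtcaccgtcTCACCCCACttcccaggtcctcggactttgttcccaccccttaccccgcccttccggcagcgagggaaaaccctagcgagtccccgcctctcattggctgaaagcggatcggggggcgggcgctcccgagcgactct
Top2a holds 6 copies of CCAAT in these bases. Over the 300-base windows, CCAAT was in 8 of 13 DNA replication promoters and 6 of 7 mitosis promoters of the genes called, against 38.9% of 10131 promoters of tested genes. The same box was in 3 of 3 promoters of the cholesterol genes called, whose change was more negative. Among all more positive genes it was in 40.9% of promoters, and among all more negative genes in 34.0%, both near the share of all tested genes. TTTCCCGC, another E2F form, was in 3 of the 13 and 2.2% of all, and TTTGGCGC in 1 of the 13 and 1.0%. TCACNCCAC was in 1 of 3 promoters of the cholesterol genes called and in 1.1% of all. Across the 149 promoters of more positive genes, AGATAA, the core read by GATA factors, was in 8.7% and CCACCC in 32.2%, and across the 159 of more negative genes in 6.3% and 43.4%, against 6.7% and 36.2% of all. TGACGTCA, the CRE, was in 4.0%, 1.3% and 3.2%, and TATAAA in 8.1%, 10.7% and 7.1%. The median number of CG pairs was 20 in more positive, 19 in more negative and 20 in all promoters. The CCAAT box, the TATAAA box and TCACNCCAC were added after the values were seen, and a match is a description of letters only.

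Genes of ribosome biogenesis, many of them MYC targets, had 4 of 34 called more positive (11.8%) and none more negative, with a median of 0.81 and all 34 differences above 0. Odc1 makes polyamines, Nolc1 and Gnl3 are nucleolar proteins, and Rrp12 exports preribosomes. Odc1 was at 374, 450.1, 366 and 367 CPM in the day 14 off libraries, 143 and 128 for day 14 on, 158 and 212 for day 5 off, and 147 and 154 for day 5 on. The 4 groups did not overlap, with day 14 off far above the rest and day 14 on lowest, and the difference was 1.23 ± 0.23 (adjusted p = 0.0272). Nolc1 had 1.32 ± 0.26 and Rrp12 1.73 ± 0.37. Gnl3 had 1.03 ± 0.21, and Pbrm1 on the other strand, which holds 195.5% of its counts, shares 15 exon bases with it. No gene of this list was called without day 14 off replicate 1 or 4, day 14 on replicate 1 or day 5 off replicate 1, 1 without day 14 off replicate 2, day 14 on replicate 2 or day 5 on replicate 2, and 19 without day 5 on replicate 1. Of 84 cytosolic ribosomal protein genes 1 was called, Rplp1 (0.89 ± 0.17, adjusted p = 0.0284). That is 1.19%, below the share of all genes, although all 84 differences were above 0 (median 0.44). The median change of these 84 genes was -0.35 at day 5 and 0.11 at day 14.

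Heme synthesis had 3 of 9 genes with a more positive change at day 14 (33.3%), none more negative, and a median of 1.34. Urod decarboxylates uroporphyrinogen. Urod was at 37.1, 44.7, 42.9 and 39.8 CPM in the day 14 off libraries, 14.8 and 13.6 for day 14 on, 16.9 and 26.1 for day 5 off, and 18.4 and 19.6 for day 5 on. Day 14 off was above all other libraries and the day 5 groups overlapped, a difference of 1.35 ± 0.28 (adjusted p = 0.034). Fech inserts iron into protoporphyrin. Fech stood at 24.5, 24.1, 29.8 and 28.5 CPM in the day 14 off libraries, 7.36 and 5.06 for day 14 on, 4.74 and 7.55 for day 5 off, and 6.41 and 3.90 for day 5 on. Again only day 14 off was apart, with a difference of 1.82 ± 0.41 (adjusted p = 0.0432). Alas2, the first enzyme of the path in red cell precursors, had 2.51 ± 0.59 (adjusted p = 0.0494), made of -1.63 at day 5 and 0.88 at day 14. Alas2 was at 7.71, 11.9, 12.2 and 9.32 CPM in the day 14 off libraries, 7.25 and 3.97 for day 14 on, 1.13 and 1.38 for day 5 off, and 2.36 and 5.33 for day 5 on. All libraries were low, with the day 5 off libraries lowest and day 14 off highest. Apex2 on the other strand shares 311 exon bases and holds 149.0% of its counts, so the reads of both may be mixed. Cpox (1.34 ± 0.39, adjusted p = 0.0851), Alad (1.51 ± 0.47, adjusted p = 0.096), Alas1 (-0.70 ± 0.43, adjusted p = 0.355), Ppox (0.30 ± 0.19, adjusted p = 0.373) and Uros (-0.44 ± 0.65, adjusted p = 0.732) did not pass. No gene of the list was called without any one of the 4 day 14 off libraries, without either day 14 on library or without day 5 off replicate 1, 1 without day 5 on replicate 2, 2 without day 5 on replicate 1, and 5 without day 5 off replicate 2.

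Iron handling added Steap3, an endosomal ferrireductase that serves iron uptake from transferrin (ENSMUSG00000026389, chromosome 1, 120190757 to 120272705). Steap3 was at 17.8, 19.0, 16.6 and 22.5 CPM in the day 14 off libraries, 1.24 and 1.35 for day 14 on, 3.40 and 5.19 for day 5 off, and 1.80 and 1.73 for day 5 on. The 4 groups did not overlap, with both day 14 on libraries lowest. The change of 1.29 at day 5 grew to 3.85 at day 14, a difference of 2.56 ± 0.40 (adjusted p = 0.0136), and only the test against a 2-fold minimum ended the call. Slc11a2, the divalent metal importer, had 1.46 ± 0.29 (adjusted p = 0.0317). These were 2 of 29 tested genes of heme and iron transport (6.90%, median 0.43), with Tmem14c at 0.82 ± 0.20 (adjusted p = 0.0527) just outside. The count was 5 without day 5 off replicate 2, 4 with 2 more negative without day 5 on replicate 1, and 1 without any other library.

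Mt2, a metallothionein that binds zinc and copper, had the largest positive difference among the 12 genes named for size in that direction (ENSMUSG00000031762, chromosome 8, 94172664 to 94173568). Mt2 was at 1129, 1283, 1302 and 952 CPM in the day 14 off libraries, 24 and 19.96 for day 14 on, 194 and 382 for day 5 off, and 43.6 and 114 for day 5 on. The day 14 libraries lay furthest apart, off over on 5.73, and the day 5 groups did not overlap either (1.86). The difference was 3.87 ± 0.58 (adjusted p = 0.0136), and it was lost without day 14 on replicate 2 (adjusted p = 0.0525). An antisense model, Gm45774, has 21.4% of its counts. Mt1 (2.39 ± 0.65, adjusted p = 0.0753) did not pass, and Mt2 and Steap3 were the 2 of 18 tested copper genes called (11.1%). This count was 1 without day 14 on replicate 2 and 4 without day 5 on replicate 1. Of 19 tested genes of protein lipoylation and copper-dependent death none was called by edgeR or DESeq2, 4 had an unadjusted p below 0.05, and the median was 0.32.

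Iron-sulfur cluster assembly had 4 of 25 tested genes called more positive (16.0%, median 0.44). Among them, Iba57 had 1.86 ± 0.42, Bola1 1.1 ± 0.26 and Lyrm4 1.60 ± 0.34. Fars2 on the other strand shares 115 exon bases with Lyrm4 and holds 133.1% of its counts. None of the 25 was called without day 14 on replicate 1 or day 5 off replicate 1, 1 without any day 14 off library or day 14 on replicate 2, 2 without day 5 on replicate 2, and 7 without day 5 off replicate 2. Of complex I 2 of 36 genes were called (Ndufa9 and Ndufb9), of complexes II to V 2 of 39 (Uqcr11 and Cyc1), of mitochondrial ribosomal proteins 0 of 78, of the mitochondrial genome 0 of 13 and of the citric acid cycle 0 of 18. Their medians lay between 0.31 and 0.44. In the last 3 lists 29, 2 and 7 genes had an unadjusted p below 0.05, and DESeq2 called 5, 1 and 1. For complex I no gene was called without any day 14 library or day 5 off replicate 1, 1 without day 5 off replicate 2 or day 5 on replicate 2, and 3 without day 5 on replicate 1. For complexes II to V none was called without day 14 off replicate 1, 2 or 4, either day 14 on library or day 5 off replicate 1, 1 without day 14 off replicate 3 or day 5 off replicate 2, and 3 without day 5 on replicate 2.

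Red cell genes had 2 of 36 tested called (5.56%) and a median difference of 1.37, with a median change of 1.77 at day 5 and 3.45 at day 14. Day 5 off replicate 2 decided this count: without it 15 genes were called, with a median of 2.27. Without day 14 off replicate 1, 2 or 4 or day 14 on replicate 2 it was 1. Sphk1, which makes sphingosine 1-phosphate, was one of them (ENSMUSG00000061878, chromosome 11, 116530925 to 116536674). Sphk1 was at 54.6, 45.7, 67.0 and 66.6 CPM in the day 14 off libraries, 3.63 and 4.33 for day 14 on, 5.26 and 12.5 for day 5 off, and 8.32 and 5.41 for day 5 on. The day 5 groups overlapped and the day 14 off libraries were above all others. Its change was 0.40 at day 5 and 3.87 at day 14, a difference of 3.47 ± 0.51 (adjusted p = 0.0114), called in every alternative but the 2-fold minimum. Xk, a red cell membrane protein, had 1.31 ± 0.31 (adjusted p = 0.0478). Car1, an early red cell carbonic anhydrase, had a difference of 2.98 ± 0.75 (adjusted p = 0.0603) and changes of 3.66 and 6.65. Car1 stood at 1192, 1259, 1138 and 1216 CPM in the day 14 off libraries, 14.1 and 9.94 for day 14 on, 89.4 and 314 for day 5 off, and 23.9 and 8.48 for day 5 on. The off libraries were above the on libraries on both days, the day 5 off libraries lay far apart, and the difference did not pass. Of 6 tested globins none was called by edgeR or DESeq2, and 1 had an unadjusted p below 0.05.

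Other genes with large positive differences had varied roles. Mthfd1, a folate enzyme of one-carbon metabolism, is on chromosome 12 (76255298 to 76319803). Mthfd1 was at 120.0, 119, 102 and 105 CPM in the day 14 off libraries, 16.0 and 20.9 for day 14 on, 24.3 and 38.3 for day 5 off, and 22.1 and 26.2 for day 5 on. Day 14 off was far above the rest and the day 5 groups overlapped, with a difference of 2.22 ± 0.30 (adjusted p = 0.00646), called in every alternative but the 2-fold minimum. Among the others were Slc45a3, a solute carrier (3.68 ± 0.75), Nefh, a neurofilament (3.25 ± 0.68), C1qtnf12 (2.86 ± 0.49), the glycerol channel Aqp9 (2.38 ± 0.44), the transcription factor Nfia (2.20 ± 0.47) and Selenbp1 (2.23 ± 0.51). Pax9 had 2.38 ± 0.41, and Slc25a21 on the other strand shares 189 exon bases and holds 96.9% of its counts. Hk1, the hexokinase of red cells, had 1.85 ± 0.35 (adjusted p = 0.0278) and Slc16a1, a lactate carrier, 1.43 ± 0.33 (adjusted p = 0.0463), the 2 of 23 glycolysis genes called (8.70%). The median of that list was -0.19, with 9 of 23 differences above 0. None of the list was called without day 14 off replicate 1, 2 or 4, either day 14 on library, day 5 off replicate 1 or day 5 on replicate 2, and 1 without day 5 off replicate 2 or day 5 on replicate 1. Of these genes, the calls of Slc45a3, Nefh, C1qtnf12, Aqp9, Pax9, Selenbp1 and Nfia were each lost without day 14 off replicate 1, day 14 off replicate 4 or day 14 on replicate 2.

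**Figure D3:**
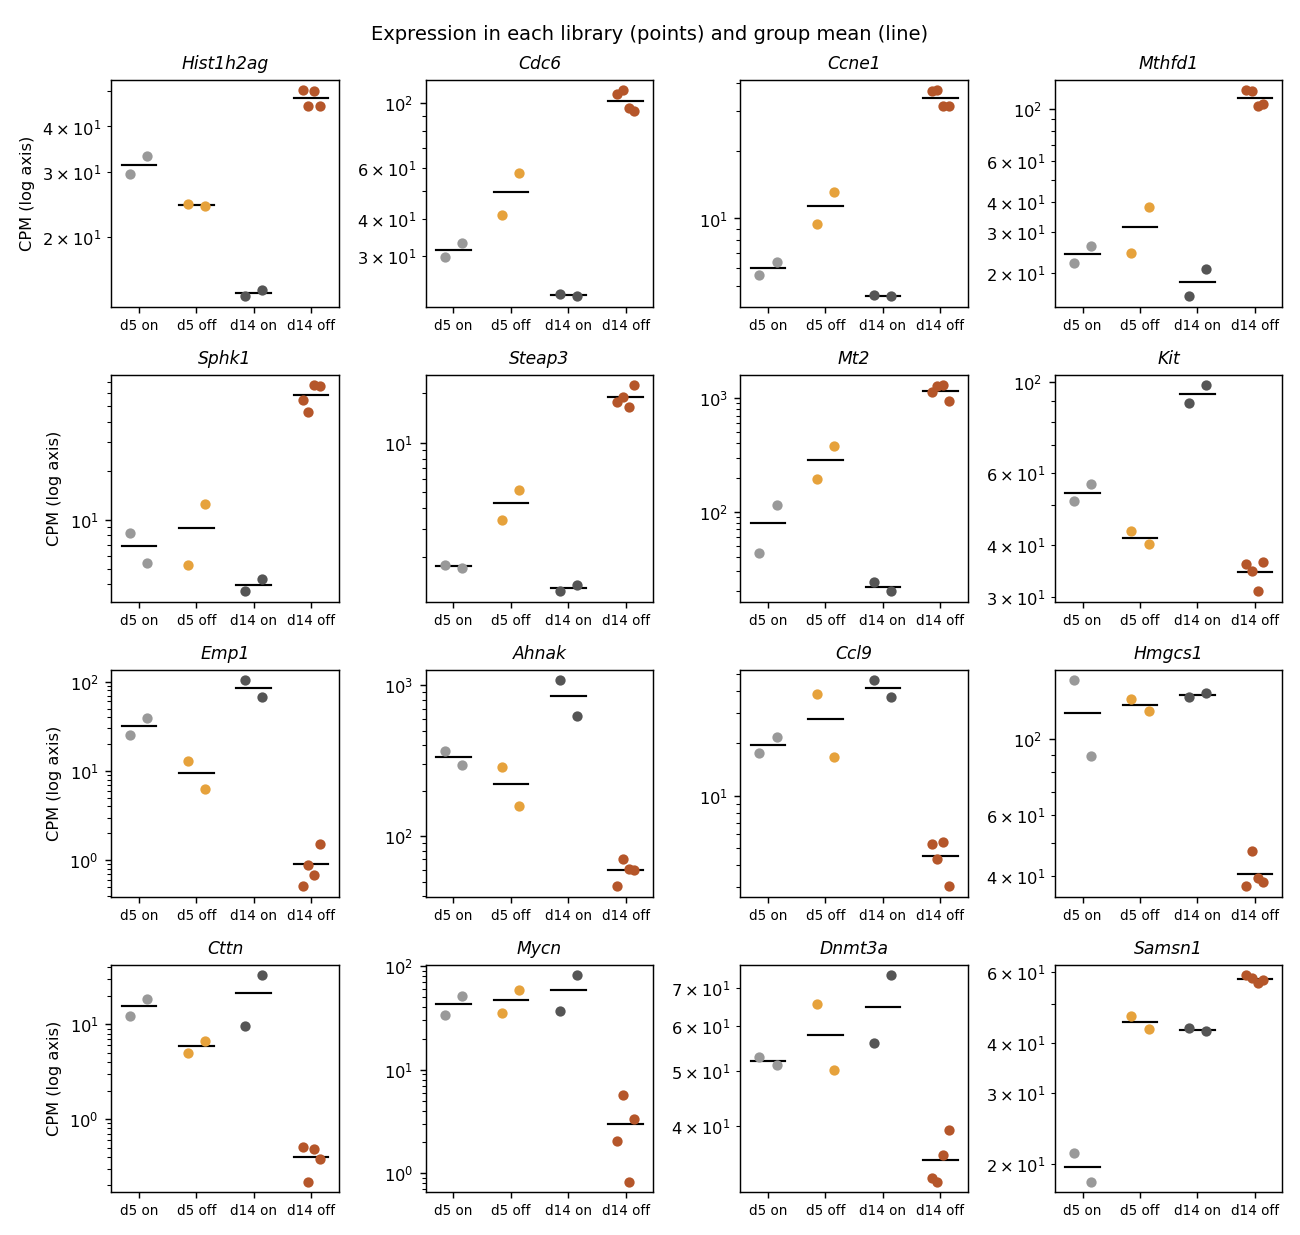
TMM-scaled CPM on log axes for 16 genes, with a point for each library and a line at the group mean, in the order day 5 on, day 5 off, day 14 on, day 14 off. In Hist1h2ag and Cdc6 the day 14 on libraries are the lowest and day 14 off the highest, and in Emp1, Ahnak and Hmgcs1 day 14 off is the lowest.

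The more negative genes were led in p-value by Emp1, an epithelial membrane protein (ENSMUSG00000030208, chromosome 6, 135362545 to 135383173). Emp1 was at 0.508, 0.879, 0.688 and 1.51 CPM in the day 14 off libraries, 104 and 68.2 for day 14 on, 12.8 and 6.33 for day 5 off, and 25.3 and 39.2 for day 5 on. The off libraries were below the on libraries at both days without overlap, the on libraries were higher at day 14 and the off libraries lower. The change was -1.77 at day 5 and -6.60 at day 14, a difference of -4.83 ± 0.56 (adjusted p = 0.00317). Ahnak is a giant scaffold protein under the membrane. Ahnak stood at 46.4, 70.5, 60.6 and 59.2 CPM in the day 14 off libraries, 1078 and 628 for day 14 on, 287 and 157 for day 5 off, and 368 and 298 for day 5 on. Day 14 on was above and day 14 off below all other libraries, and the day 5 groups did not overlap, a difference of -3.26 ± 0.42 (adjusted p = 0.00617). Ccl9 is a myeloid chemokine. Ccl9 lay at 5.25, 4.32, 5.44 and 3.01 CPM in the day 14 off libraries, 46.2 and 36.9 for day 14 on, 38.7 and 16.6 for day 5 off, and 17.6 and 21.7 for day 5 on. The day 5 off libraries lay on either side of day 5 on, day 14 off was lowest, and the difference was -3.68 ± 0.49 (adjusted p = 0.00646). All 3 calls were kept in every alternative, the 2-fold minimum included. Of 21 tested monocyte markers none was called by edgeR, 2 by DESeq2, and 6 had an unadjusted p below 0.05. Their sum was 3891 to 8299 CPM for day 14 off, 7962 and 3020 for day 14 on, 6645 and 4519 for day 5 off, and 5054 and 2577 for day 5 on, and their part in the Ccl9 result was not tested.

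Mycn, a MYC family factor with a large negative difference, is on chromosome 12 (12936093 to 12941914). Mycn was at 2.03, 5.71, 0.826 and 3.29 CPM in the day 14 off libraries, 37.0 and 81.7 for day 14 on, 35.7 and 58.5 for day 5 off, and 34.1 and 52.0 for day 5 on. The 3 other groups overlapped and day 14 off was far lower, with a difference of -4.45 ± 0.81 (adjusted p = 0.028). Bcl11b, a factor of T cell commitment, had -3.76 ± 0.68 (adjusted p = 0.0276) and Zbtb16, the factor PLZF, -3.24 ± 0.58 (adjusted p = 0.0258). Cdh17, a cadherin, had -4.52 ± 0.74 (adjusted p = 0.0186) and Bex6 -4.07 ± 0.80 (adjusted p = 0.033). Col16a1, a collagen, had -4.86 ± 1.10, lost without each library but day 14 off replicate 2, with day 14 off libraries from 1.24 to 9.59 CPM. Bcl11b was the 1 of 22 tested T and NK genes called (list median -0.65), and their sum was 183.7 to 338.9 CPM for day 14 off, 338.7 and 599.5 for day 14 on, 321.6 and 531.2 for day 5 off, and 437.6 and 371.3 for day 5 on. Trac, a T cell receptor chain, was at or below 2.89 CPM in every library, and the part of T cells in the Bcl11b result was not tested. The calls of Mycn, Bcl11b, Zbtb16, Cdh17 and Bex6 were each lost without day 14 off replicate 4 and without day 14 on replicate 2, and other libraries also ended some of them.

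A stretch of chromosome 7 held several of these genes. A window from 144235733 to 145139925 (mm10), which reaches 200000 bases beyond Cttn and Ccnd1, held 10 tested genes. Of these 5 had a more negative change at day 14 and none a more positive one, with a median of -2.61. Over all tested genes 1.41% were more negative. The window is set by genes that were themselves called, so its count and median lend its direction no support. Cttn encodes cortactin, an actin binding protein (ENSMUSG00000031078, chromosome 7, 144435733 to 144471009). Cttn was at 0.508, 0.22, 0.482 and 0.377 CPM in the day 14 off libraries, 9.64 and 33.0 for day 14 on, 5.05 and 6.74 for day 5 off, and 12.4 and 18.7 for day 5 on. The day 14 off libraries were below all others, the day 5 off libraries were below day 5 on without overlap, and the difference was -4.32 ± 0.72 (adjusted p = 0.0186), lost without day 14 off replicate 4 (adjusted p = 0.0584). Fgf15, a growth factor, is at 144896531 to 144900953. Fgf15 stood at 0.423, 1.32, 0.482 and 0.659 CPM in the day 14 off libraries, 15.9 and 27.6 for day 14 on, 7.22 and 32.4 for day 5 off, and 6.52 and 14.6 for day 5 on. Day 14 off was lowest, day 14 on was above day 5 on, and day 5 off overlapped both, and the difference was -5.78 ± 0.93 (adjusted p = 0.0186), lost without day 14 on replicate 2 (adjusted p = 0.0507). Fgf3, a related factor, had -4.61 ± 0.93 (adjusted p = 0.0352), with 0.0847 to 1.83 CPM for day 14 off and 13.5 to 68.2 in the other libraries. Ccnd1, cyclin D1, had -1.40 ± 0.30 (adjusted p = 0.0373) and its neighbour LTO1 -1.24 ± 0.28. LTO1 lies on the other strand, shares 1100 exon bases with Ccnd1 and holds 90.2% of its counts, so the pair is not 2 separate measurements. Ppfia1, Fadd and Ano1 of the same window were not called, with differences of 0.20 ± 0.35, 0.77 ± 0.27 and -2.70 ± 0.73.

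Fgfr1, a receptor of such factors, lies on chromosome 8. Fgfr1 was at 2.29, 0.805, 0.757 and 1.22 CPM in the day 14 off libraries, 72.0 and 29.8 for day 14 on, 2.37 and 3.57 for day 5 off, and 14.6 and 11.3 for day 5 on. It was lower off than on at both days without overlap and day 14 on was above all other libraries, a difference of -3.24 ± 0.68 (adjusted p = 0.0377). It and 4 genes of the window made 5 of 8 tested in a list drawn up around them (62.5%, median -2.97). This list was written with the day 14 results known and lends its direction no support. The count was 3 without day 14 off replicate 1, 2 or 3, day 14 on replicate 1 or either day 5 off library, 2 without day 14 on replicate 2, and 1 without day 14 off replicate 4.

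The list of cholesterol synthesis and uptake, which also holds fatty acid genes, had 4 of 29 tested genes with a more negative change at day 14 (13.8%). None was more positive, and the median was -0.84. The fatty acid genes Acaca (0.54), Srebf1 (0.37), Fasn (0.13), Scd1 (-0.07), Acly (-0.30) and Scd2 (-0.77) were not called. Hmgcs1 makes the precursor of mevalonate (ENSMUSG00000093930, chromosome 13, 119690379 to 119708260). Hmgcs1 was at 37.3, 47.3, 39.5 and 38.5 CPM in the day 14 off libraries, 132 and 136 for day 14 on, 130.2 and 121 for day 5 off, and 148 and 89.4 for day 5 on. Day 14 off was below all other libraries, and the day 5 on libraries lay on either side of day 14 on and of day 5 off. The change was 0.08 at day 5 and -1.72 at day 14, a difference of -1.80 ± 0.28 (adjusted p = 0.0125), called in every alternative but the 2-fold minimum. Srebf2, the transcription factor of this pathway, differed in another way. Srebf2 stood at 43.4, 50.4, 60.8 and 60.4 CPM in the day 14 off libraries, 140.0 and 105 for day 14 on, 63.5 and 47.1 for day 5 off, and 49.2 and 43.3 for day 5 on. Here the day 14 on libraries were apart, above all others, and the difference was -1.45 ± 0.29 (adjusted p = 0.0301). Cyp51, a demethylase of lanosterol, had -1.48 ± 0.35 (adjusted p = 0.0488). The count was 1 without day 14 off replicate 1, 2 or 4, day 14 on replicate 1 or day 5 off replicate 1, 2 without day 14 off replicate 3, day 14 on replicate 2, day 5 off replicate 2 or day 5 on replicate 2, and 9 without day 5 on replicate 1.

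Stem and progenitor genes had 4 of 25 tested called more negative and 1 more positive (20%, median -0.84). Kit encodes the stem cell factor receptor used in the sort (ENSMUSG00000005672, chromosome 5, 75574916 to 75656722). Kit was at 36.1, 34.6, 30.9 and 36.4 CPM in the day 14 off libraries, 88.9 and 98.1 for day 14 on, 43.3 and 40.2 for day 5 off, and 51.3 and 56.2 for day 5 on. All 4 groups were apart: the on libraries were higher at day 14 than at day 5 and the off libraries lower. The change was -0.36 at day 5 and -1.44 at day 14, a difference of -1.07 ± 0.19 (adjusted p = 0.022), within cells that were all sorted as cKit positive. Its call was lost without day 14 off replicate 1 or 4, day 14 on replicate 2 or day 5 off replicate 1. Mef2c, a transcription factor (-1.41 ± 0.30, adjusted p = 0.0377), the survival gene Bcl2 (-2.34 ± 0.51, adjusted p = 0.0429) and Mycn were the other more negative genes. Egfl7, which hosts miR-126, had 1.31 ± 0.22 (adjusted p = 0.0186), with day 14 off above all other libraries, and lost its call without day 14 off replicate 1 or 4, either day 14 on library or day 5 off replicate 1. No gene of the list was called more negative without day 14 off replicate 1 or 4 or day 14 on replicate 2, 1 without day 5 off replicate 1, and 2 without day 14 off replicate 3 or day 5 off replicate 2.

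Among the genes of the vectors, Dnmt3a had a difference of -1.05 ± 0.25 (adjusted p = 0.0492). Dnmt3a was at 32.3, 31.9, 35.6 and 39.2 CPM in the day 14 off libraries, 55.9 and 73.6 for day 14 on, 65.6 and 50.1 for day 5 off, and 52.8 and 51.2 for day 5 on. Day 14 off was below the other libraries and the day 5 groups overlapped, and this call was lost in 7 of the 10 fits that leave out a library. A 3′ tag counted at the mouse gene need not come from the vector, so these counts do not check that R882H was off. Idh2 (0.55 ± 0.38) and Nras (-0.33 ± 0.18) did not pass, nor did Itgam (-3.15 ± 0.90, adjusted p = 0.0827).

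Few of the 487 called genes had a doxycycline change that was larger at day 5. It was larger in size at day 5 in 15 of the 262 and 14 of the 225 genes, and in 2 of these in each direction the day 5 change was itself called. Over all 15916 tested genes it was larger at day 5 in 5345. The called genes were chosen on the gap between the days, and the part of that choice in these numbers was not tested. Far more changes were called at day 14 (5063) than at day 5 (77). Day 14 had 4 off and 2 on libraries, and day 5 had 2 of each. No gene had called changes of opposite sign on the 2 days. Samsn1, an adaptor protein of lymphoid and myeloid cells, met the rule for naming. Samsn1 was at 58.8, 58.0, 56.4 and 57.3 CPM in the day 14 off libraries, 43.5 and 42.7 for day 14 on, 46.7 and 43.3 for day 5 off, and 21.2 and 18.1 for day 5 on. The off libraries were higher on both days without overlap, and the on libraries were closer to them at day 14. The change was 1.2 at day 5 and 0.42 at day 14, a difference of -0.78 ± 0.19 (adjusted p = 0.0496), lost in 9 of the 10 fits that leave out a library. Thbs1, a platelet protein, also had a day 5 change above 0 (2.52) and one below 0 at day 14 (-0.96), a difference of -3.47 ± 0.70 (adjusted p = 0.0322), and no library exceeded 3.83 CPM. Cpa3, a mast cell protease, had 2.32 and -1.53 (-3.86 ± 0.79, adjusted p = 0.0352), the 1 of 10 mast cell genes called. Both were picked after their values were seen.

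Several lists had no gene called by edgeR. Primary granule genes had 0 of 14 and a median of -1.61, class II and dendritic genes 0 of 18 (-0.55), class I genes 0 of 24 (-0.31), NF-kB targets 0 of 20 (-0.79), immediate early genes 0 of 20 (-0.40), B cell genes 0 of 9 (-0.28) and NRF2 targets 0 of 17 (0.04). In the same order 6, 1, 3, 8, 2, 1 and 1 genes had an unadjusted p below 0.05, and DESeq2 called 2, 0, 2, 4, 2, 0 and 1. Late neutrophil genes had 1 of 21 called, Padi4, which was more negative, while the list's median was 0.64 and 17 of its 21 differences were above 0. Interferon genes had 1 of 43 (Ddx60, more positive, list median 0.22), polycomb and NuRD genes 1 of 31 (Chd3, more negative, median 0.04), ATF4 targets 1 of 28 (Mthfd1l, more positive, median 0.55), mitochondrial chaperones 1 of 16 (Phb, more positive, median 0.80) and MAPK targets 1 of 18 (Ccnd1, more negative, median -1.41). Of 16 p53 targets (median -0.14) 2 were more negative, Sesn1 (-1.66 ± 0.31) and Trp53inp1 (-1.80 ± 0.35), and of 15 megakaryocyte genes (median -0.49) 2, Itga2b (-2.53 ± 0.50) and Thbs1. Neither list had a gene called without day 14 off replicate 1 or 4 or day 14 on replicate 2. The p53 count was 1 without day 5 off replicate 2, and the megakaryocyte count was 2 without day 14 off replicate 3 or day 5 on replicate 1 and 1 without any other library. With 2 libraries in 3 of the groups a count of 0 does not show that the changes were equal on the 2 days.

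**Figure D4:**
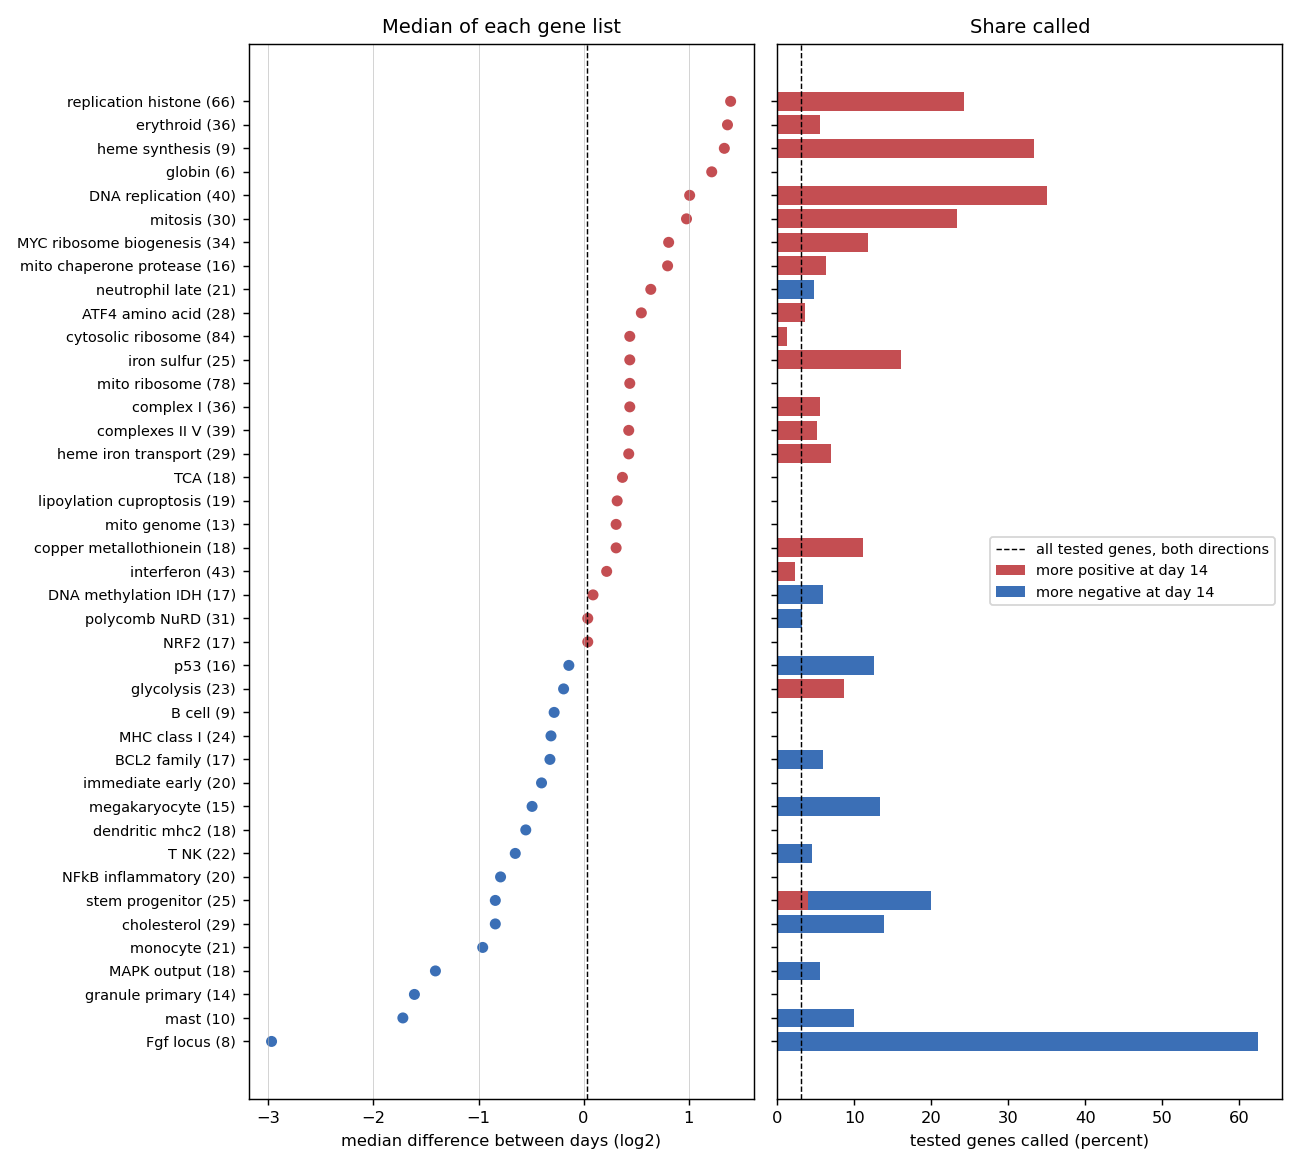
Left, the median difference between days (log2) of each list with at least 5 tested genes, with the number tested in brackets and a dashed line at the median of all tested genes (0.03). Right, the percent of tested genes called more positive (red) or more negative (blue) at day 14, with a dashed line at 3.06% for all genes; DNA replication reached 35% and the list around Fgf genes 62.5%.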

How the data were processed

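RNA of sorted leukaemic progenitor cells was measured in 10 libraries with a 3′ mRNA kit (QuantSeq), per the labels' protocols. The authors deposited raw counts per gene. Per the submitters' processing notes the tools were bcl2fastq 2.17.1.14, cutadapt 1.14, HISAT2 2.0.4, featureCounts of Subread 2.0.0, edgeR 3.34.0 and limma 3.48.3, with the mm10 build, and the strand setting is not given in the sources used here. Of 52636 gene IDs, 52403 matched GENCODE M21 and 233 did not.

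Genes were kept by filterByExpr over the 4 groups (15916 genes), scaled by TMM and fitted with one mean per group in edgeR 4.0.16 (R 4.3.3, robust quasi-likelihood, 6 residual degrees of freedom). The contrast was the off minus on change at day 14 minus that at day 5, with p-values adjusted by Benjamini-Hochberg across the 15916 genes and calls below 0.05. Standard errors are the log2 value divided by the square root of F. Total counts per library set the precision, and groups of 2 libraries limit it. Alternatives were RLE scaling, other filters on low counts, DESeq2 1.42.0, voom in limma 3.58.1, a replicate block, a 2-fold minimum, thinned counts, other gene sets and leaving out each library. The setting without small RNA genes and the list counts under each setting were added after the data were seen.

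Named genes were those of the vectors and of the sort, the 12 largest differences in each direction among called protein-coding genes whose average log2 CPM was 3 or more, up to 3 genes of smallest p from each list with at least 3 called, and genes with a called and larger change at day 5. Other genes named as called members of a list, or beside these, were chosen after their values were seen. The members and gene lists were chosen with earlier results of these data known. Promoters came from RefSeq (GRCm38.p6), with 10131 of the tested genes matched. Some results are not reported here.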

Additional observations from a re-analysis of the deposited data

Results flagged for a closer look

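The comparison between the days is itself a test of whether 2 effects differ, so its counts are listed here: 262 genes with a more positive and 225 with a more negative change off over on at day 14 than at day 5. In the 52 genes named by rule, the day 14 off group of 4 libraries was screened for a library far from the others by Dixon's test, for which chance gives about 1 in 20. Odc1 was high in day 14 off replicate 2, at 450.1 CPM, and Gnl3 was low in day 14 off replicate 3, at 103.7 CPM. Without those libraries the call of Odc1 and the call of Gnl3, respectively, were kept.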

How the results depend on the processing

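All 487 called genes kept their direction in every alternative in which they could be fitted, and how many were called depended on the setting. More positive and more negative calls, 262 and 225 in the reported fit, came to 775 and 1182 without a filter on low counts, 681 and 646 with DESeq2, 20 and 10 with a 2-fold minimum, and 157 and 197 without small RNA genes. A fit with the replicate block, in which libraries of the same number are paired, gave 720 and 801. The labels give same-numbered libraries no shared origin and only numbers 1 and 2 recur in every group, so they were not treated as pairs. Their deviations from the group means correlated at 0.03 to 0.334, above 0.1 in 10 of 12 comparisons. These 12 are not independent. In a group of 2 libraries the 2 deviations mirror each other. Between such groups numbers 1 and 2 therefore give the same value (0.203, 0.334 and 0.3), which is counted 2 times. With the block the more positive calls rose from 14 to 21 in DNA replication, from 7 to 15 in mitosis, from 4 to 16 in MYC and ribosome biogenesis, from 4 to 7 in iron-sulfur genes, from 1 to 10 in cytosolic ribosome, from 1 to 9 in mitochondrial chaperones, from 0 to 6 in mitochondrial ribosome and from 0 to 3 in globins. The more negative calls rose from 4 to 10 in stem and progenitor genes, from 0 to 5 in monocyte, from 0 to 4 in primary granule and from 1 to 5 in MAPK genes. Leaving out each library in turn gave 51 to 551 more positive and 54 to 414 more negative genes, fewest without day 5 off replicate 1 and day 14 off replicate 1 and most without day 5 on replicate 1. The share of more positive calls, 53.8%, was 39.6% without a filter, 66.7% with a 2-fold minimum, 34% without day 14 off replicate 2 and 38.3% without day 14 on replicate 1. Over the 49 named genes with a call, 762 of 1028 comparisons kept it and 266 lost it, none reversed. Of these genes 7 kept it in all alternatives in which they could be fitted, and 13 did so once the 2-fold minimum is set aside. Groups of 2 libraries at day 5 limit what could be called there.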
